A study of Mus musculus with 6 samples.

Results

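The type I interferon response genes examined here are 36 mouse genes, chosen by symbol: the receptor subunits of type I interferon, the signalling factor Stat2, and genes that interferon is known to induce. All 36 were among the 51912 genes listed in the count files, each in 1 row. RNA was sequenced from GFP+ cells of the aorta-gonad-mesonephros (AGM), the embryonic region around the dorsal aorta where blood stem cells first form, at E10.5. The CD206pos libraries (n = 3) held GFP+ cells that carried CD206, the mannose receptor encoded by Mrc1, on their surface, and the CD206neg libraries (n = 3) held GFP+ cells that did not. Both populations came from MacGreen (Csf1r-EGFP) embryos, a strain whose transgene marks macrophages and some of their precursors, and the labels name no agent given to either, so that levels are described as basal. Each library pooled 3 to 5 AGM of 1 of 3 independent litters, and the labels name no background strain beyond MacGreen.

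Type I interferons bind the receptor formed by Ifnar1 and Ifnar2, which acts through the kinases Jak1 and Tyk2. They activate the complex ISGF3, which contains Stat2 and Irf9, binds a promoter element called ISRE and switches on genes that sense foreign RNA, degrade it, or block viral entry and budding. Macrophages carry this pathway at rest, and signalling by interferons and other inflammatory cytokines has been linked to the formation of blood stem cells in the mouse embryo.

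ISRE stretches are shown because this is the element through which ISGF3 acts on the induced members. Promoters from 250 bases before to 50 bases after the start site, from RefSeq (build GRCm38.p6), were searched on both strands for the letters GAAANNGAAA, in which matches can overlap each other. A promoter was listed for 26 of the 36 members, and 14 of those 26 held a match, against 3.99% of 27025 genes with a promoter (3.44% of 32851 promoters). The letters TTCNNNGAA of the related GAS element, which can overlap an ISRE, were in 10 of the 26 members and 9.55% of all genes. The stretches below come from 3 members with low levels (Isg15, Ifit1 and Rsad2), from Oas3, which had no read, from Bst2 and Ifitm3, the members at the highest level, and from Stat2. They are written 5′ to 3′ on the gene's strand, and capitals mark the bases of the matches.
Isg15: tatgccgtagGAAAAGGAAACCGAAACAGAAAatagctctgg
Ifit1: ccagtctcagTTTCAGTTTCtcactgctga
Rsad2: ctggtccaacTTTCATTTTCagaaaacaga
Oas3: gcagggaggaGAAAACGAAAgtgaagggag
Bst2: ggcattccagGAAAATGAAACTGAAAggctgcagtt
Ifitm3: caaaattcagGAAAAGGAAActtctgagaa
Stat2: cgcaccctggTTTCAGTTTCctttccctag
The Isg15 stretch (chr4:156200865-156200906, minus strand) held 3 overlapping matches between bases -78 and -57 from the start site, and the Bst2 stretch (chr8:71537577-71537612, minus strand) held 2 between -130 and -115. The other stretches hold 1 match each, and the promoters of Ifit1 and Ifitm3 held a further match that is not shown. Those shown lie in Ifit1 at chr19:34640794-34640823 (plus strand), Rsad2 at chr12:26456553-26456582 (minus strand), Oas3 at chr5:120777715-120777744 (minus strand), Ifitm3 at chr7:141010723-141010752 (minus strand) and Stat2 at chr10:128270266-128270295 (plus strand). The Ifitm3 match lay just after the start site, at bases 3 to 12. The match was thus found in members at both ends of the range of levels: mean levels over the 6 libraries ran from 0 to 117 RPKM among the 14 members with it and from 0 to 38.2 RPKM among the 12 without it, with medians of 2.90 and 4.39 RPKM. RPKM is the read count per kilobase of exon, relative to the library's reads in genes and scaled by TMM, the trimmed-mean scaling of edgeR, and is used wherever levels of different genes are compared.

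CPM is the same measure without the division by length, and is used for 1 gene across libraries. The CD206pos libraries held 16973143, 17868279 and 17918687 reads in genes and the CD206neg libraries 18214283, 16730846 and 16926014, so that 3 reads, the limit that a count of 0 allows, stand for 0.165 to 0.179 CPM. Mrc1 averaged 1585 ± 181 CPM in CD206pos and 93.9 ± 36.8 CPM in CD206neg (SD, n = 3 each), which checks the sort and is no finding. Of 10 macrophage markers, all were detected in both populations and 5, Mrc1 among them, were called higher in CD206pos (summed level 6347 to 9236 CPM in CD206pos and 3502 to 4496 CPM in CD206neg). Of 12 markers of myeloid progenitors and granulocytes, 8 were tested and all 8 were lower in CD206pos. Their sum was 35.7 to 115.7 CPM in CD206pos and 2671 to 3454 CPM in CD206neg. Kit, Ctsg, Ms4a3, S100a8, S100a9, Ly6g and Camp were at 0 reads throughout CD206pos, and Ly6g was at 0 in CD206neg too. Of 6 markers of plasmacytoid dendritic cells, the main interferon producers among blood cells, 2 could be tested and neither was called (summed level 9.66 to 37.7 CPM in CD206pos and 5.94 to 13.4 CPM in CD206neg), with Ccr9, Klk1 and Ly6d at 0 in both. In bulk RNA, fewer cells of a type and less RNA per cell cannot be told apart.

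The members ranged in level from 117 RPKM to no read at all. Of the 36, 7 averaged 50 CPM or more, 11 lay between 10 and 50 CPM, 16 lay under 10 CPM and 2 had no read in any library. The highest levels per length belonged to Ifitm3 (117 RPKM), which stood above 97.8% of the 23619 genes with at least 1 read, and to Bst2 (91.5 RPKM, above 97.0%). Ifitm2 (52.9 RPKM), Ifnar2 (38.2 RPKM), Ifnar1 (28.5 RPKM), Samhd1 (28.1 RPKM), Ifi35 (26.9 RPKM) and Trim30a (13.35 RPKM) followed. Genes known for a steep response to interferon were low. Isg15 was at 2.21 RPKM, Ifit2 at 1.11, Ifit1 at 0.816, Oas2 at 0.618 and Rsad2 at 0.379 RPKM. The members with no read were Oas3 and Ifi44, although their counted exons span 7069 and 6129 bases and no other gene overlaps them. In summed CPM, Samhd1 alone held 21.1% and the first 7 members held 68.6% of the level of all 36.

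**Figure D1:**
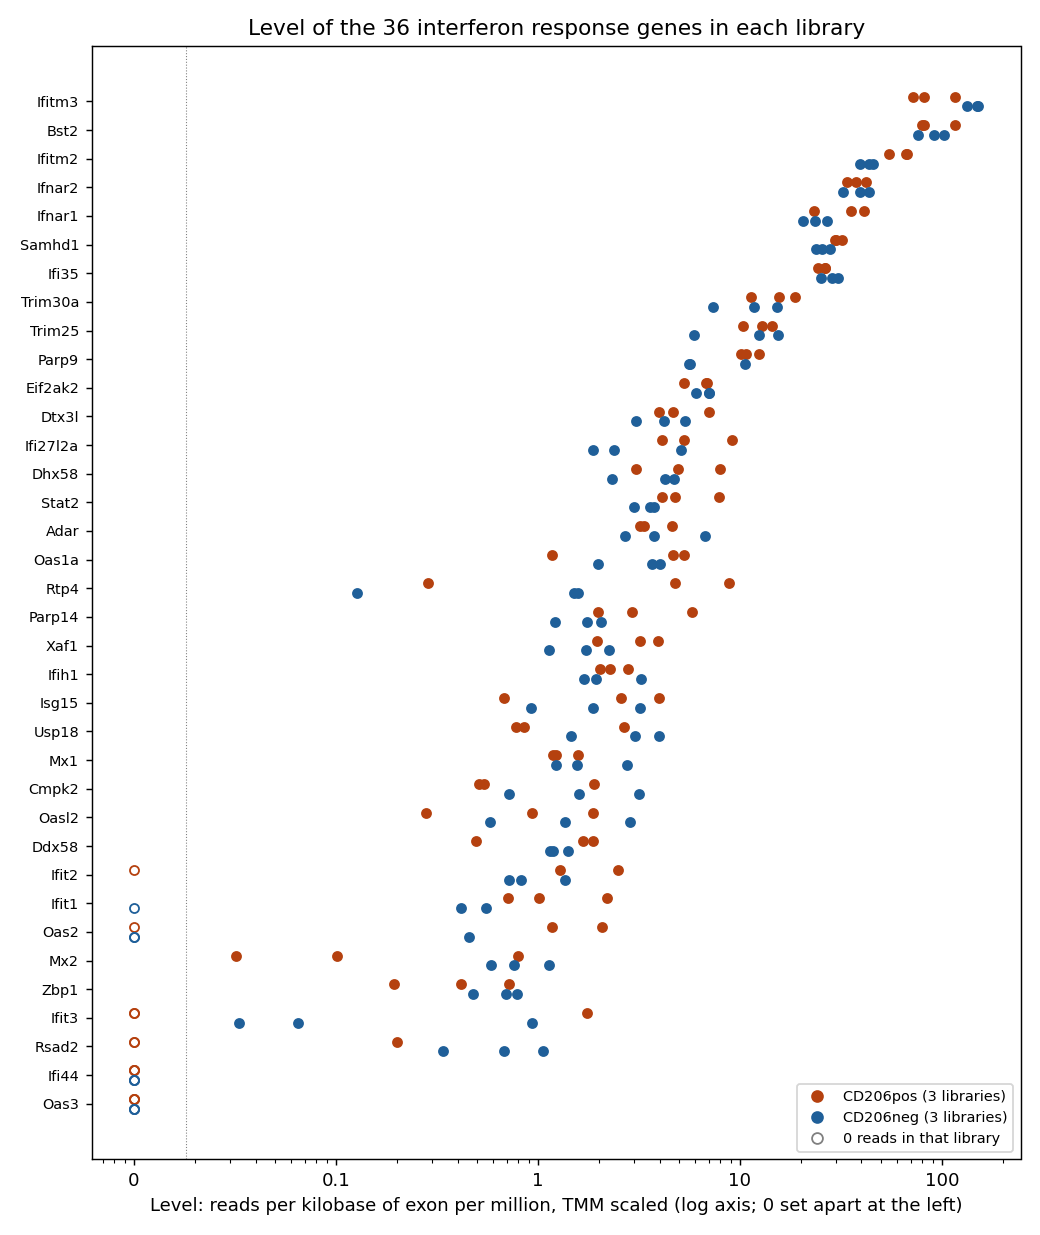
Level of each of the 36 members in each of the 6 libraries, as RPKM on a log axis, ordered by the mean of the 6 libraries, with CD206pos points above CD206neg points. The most abundant members show libraries close together, members under 5 RPKM spread widely, and open circles at the left mark libraries with 0 reads, as in all 6 libraries for Oas3 and Ifi44.

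CD206pos was then compared with CD206neg for each member. Of 33 members tested, 0 were called higher and 0 lower in CD206pos (edgeR's quasi-likelihood test, Benjamini-Hochberg adjusted p under 0.05 over all 12668 genes tested). Over all genes tested, 4.87% were called, 2.97% higher and 1.9% lower. The members not tested, Ifit3, Oas3 and Ifi44, were under the filter on low counts. At an unadjusted p under 0.05 there were 4 members, Stat2, Ifitm2 and Parp14 on the higher side and Ifitm3 on the lower side, where the same threshold took 17.6% of all genes. DESeq2 called 1 member, Ifitm3 (9.56% of all genes were called), and so did limma-voom (6.43%). The groups did not overlap for 6 of the 33, against 24.6% of all genes tested. The fitted log2 fold change was above 0 for 21 and below 0 for 12, with a median of 0.20, where 49.6% of all genes lay above 0 and their median was -0.0043. With library totals as the only scaling, Ifih1 and Bst2 turned to values just below 0. The median of the members moved with the libraries used, from 0.0053 without CD206pos replicate 3 to 0.37 without CD206pos replicate 1, and was 0.096 with the litter as a block and 0.10 with library totals as the only scaling.

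How much these tests could show depended on the level. For the 7 members at 50 CPM or more, the standard error of the log2 fold change lay between 0.13 and 0.33, and for the 15 tested members under 10 CPM between 0.49 and 2.02. Of these 7 members, the 95% intervals were -0.40 to 0.37 for Ifnar2, -0.44 to 0.51 for Bst2 and -0.04 to 0.55 for Samhd1. For the other members of that class they were -0.02 to 0.998 for Ifnar1, -1.16 to -0.21 for Ifitm3, -0.59 to 0.91 for Trim25 and -0.27 to 1.09 for Trim30a. Ifi35, between 10 and 50 CPM, had -0.54 to 0.29. For the low members the intervals were wider, such as -1.95 to 2.49 for Isg15 and -2.48 to 3.23 for Ifit2. They left room for a difference of several fold in either direction in these genes.

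**Figure D2:**
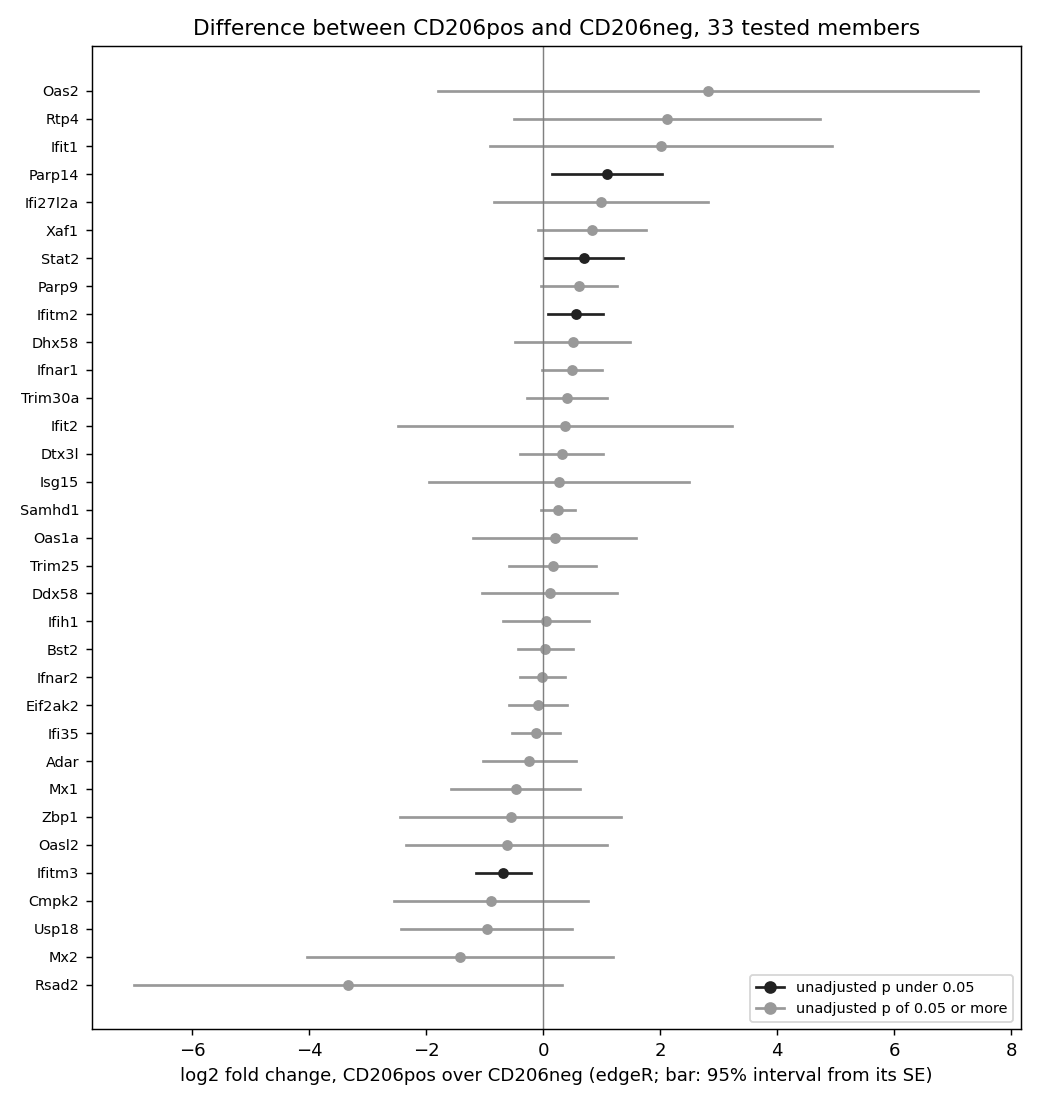
log2 fold change of CD206pos over CD206neg for the 33 tested members, with bars for the 95% interval from edgeR's standard error and darker symbols where the unadjusted p is under 0.05. The darker symbols are Parp14, Stat2 and Ifitm2 above 0 and Ifitm3 below 0, and the bars widen from the abundant genes, such as Samhd1 and Ifnar2, to the low ones, such as Oas2 and Rsad2.

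Transcripts of both receptor subunits were present in both populations. Ifnar1, the low-affinity subunit (ENSMUSG00000022967.12, GRCm38 chromosome 16, 91485238 to 91507441, plus strand), had 136, 208 and 242 CPM in the CD206pos libraries of replicates 1, 2 and 3, against 120, 160 and 138 CPM in the CD206neg libraries. Only the first CD206pos library fell inside the range of CD206neg (log2 fold change 0.49 ± 0.22, SE, adjusted p = 0.31). Ifnar2, the high-affinity subunit, had 113, 141 and 126 CPM in CD206pos and 108, 130 and 145 CPM in CD206neg, with fully mixed libraries (-0.01 ± 0.17, adjusted p = 0.98). Exons of another gene overlap 9.46% of the counted length of Ifnar2. Stat2, the subunit that gives ISGF3 its activating domain, had 28.2, 24.5 and 46.45 CPM in CD206pos, against 17.75, 22.3 and 21.4 CPM in CD206neg. All CD206pos libraries lay above all CD206neg libraries, by a small margin apart from replicate 3 (0.69 ± 0.29, unadjusted p = 0.045, adjusted p = 0.27).

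Outside the 36 members, 0 of 12 further signalling genes were called (the threshold took 4.87% of all genes), and their log2 fold changes lay between -0.27 and 0.31. Jak1, the kinase bound to Ifnar2, averaged 313 ± 78.2 CPM in CD206pos and 263 ± 55.4 CPM in CD206neg (SD, n = 3 each), and Tyk2, the kinase bound to Ifnar1, 49.95 ± 19.2 CPM in CD206pos and 60.0 ± 25.2 CPM in CD206neg. Irf9 averaged 34.1 ± 11.1 CPM in CD206pos and 27.45 ± 8.27 CPM in CD206neg. Irf7, the factor that amplifies interferon production, averaged 11.4 ± 1.44 CPM in CD206pos and 10.3 ± 6.06 CPM in CD206neg. The adjusted p values of these 4 genes lay between 0.67 and 0.93. Of 21 interferon ligand genes, 19 had no read in any library. Ifnb1, encoding interferon beta, had 0, 5 and 14 reads in CD206pos and 6, 71 and 9 reads in CD206neg, which is under the filter. The other ligand with a read was Ifnk, with 2 reads in CD206neg replicate 2 (named after its value was seen). Reads that map to several places were not counted, which lowers counts for near-identical genes such as those of the interferon alpha family.

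Among sensors of foreign or self RNA, no member passed and none had groups apart. Eif2ak2, the kinase PKR, averaged 32.3 ± 4.54 CPM in CD206pos and 34.4 ± 2.98 CPM in CD206neg, and Ifih1, the sensor of long double-stranded RNA, 19.4 ± 3.17 CPM in CD206pos and 18.7 ± 6.79 CPM in CD206neg. Adar, which edits double-stranded RNA, averaged 30.2 ± 6.32 CPM in CD206pos and 35.65 ± 16.8 CPM in CD206neg, and 16.8% of its counted length overlaps Chrnb2. The sensor RIG-I (Ddx58) and its relative Dhx58 averaged 9.51 ± 5.27 and 17.4 ± 8.20 CPM in CD206pos, against 8.81 ± 1.02 and 12.3 ± 4.17 CPM in CD206neg. Zbp1, a sensor of left-handed nucleic acid that triggers cell death, was low in both, at 1.57 ± 0.933 CPM in CD206pos and 2.31 ± 0.558 CPM in CD206neg. The 6 log2 fold changes lay between -0.56 and 0.50, with adjusted p values of 0.65 or more. Of 11 tested sensors and adaptors outside the members, 1 rose, beside 4.87% of all genes called. It was Tlr7, a receptor for single-stranded RNA in endosomes, at 67.5, 71.9 and 75.15 CPM in CD206pos, against 24.7, 30.35 and 25.7 CPM in CD206neg (1.41 ± 0.19, adjusted p = 0.0047). The Tlr7 call was lost without litter 2 (adjusted p = 0.13) and without litter 3 (adjusted p = 0.089). Tbk1, the kinase downstream of the RNA sensors, averaged 150.5 ± 10.75 CPM in CD206pos and 109.5 ± 25.45 CPM in CD206neg and was at an unadjusted p of 0.045 (adjusted p = 0.27).

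Membrane restriction factors were the most abundant members per length, and Ifitm3 and Ifitm2 lay on opposite sides of 0 without passing the test. Ifitm3, which blocks fusion of viruses with endosomes (ENSMUSG00000025492.6, GRCm38 chromosome 7, 141009586 to 141010770, minus strand), had 78.4, 55.6 and 48.9 CPM in CD206pos, against 90.1, 102.7 and 101 CPM in CD206neg. Every CD206pos library lay below every CD206neg library (log2 fold change -0.68 ± 0.21, SE, unadjusted p = 0.00997, adjusted p = 0.12 in edgeR). DESeq2 called the difference (adjusted p = 0.026), and so did limma-voom (0.027 as its adjusted p) and edgeR without CD206pos replicate 1 (-0.91, adjusted p = 0.034, with 4.14% of all genes called), and over the alternatives the adjusted p ran from 0.026 to 0.555. Ifitm2, of the same family, had 43.7, 35.8 and 44.1 CPM in CD206pos, against 29.8, 25.8 and 28.7 CPM in CD206neg. Here every CD206pos library lay above every CD206neg library (0.55 ± 0.21, unadjusted p = 0.027, adjusted p = 0.21). Exons of Gm45717 overlap 40.9% of the counted length of Ifitm2, and without strand reads there are not assigned. Bst2, encoding tetherin, which holds budding virus at the cell surface, had 105, 74.0 and 71.6 CPM in CD206pos and 83.0, 69.1 and 92.7 CPM in CD206neg, with mixed libraries (0.03 ± 0.21, adjusted p = 0.97).

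The same gene family held the only pathway gene outside the members that edgeR called lower, while DESeq2 also called Sp100 and Ifi211 lower. Ifitm1, which encodes a close relative of Ifitm3 at the cell surface, had 3.73, 2.92 and 2.31 CPM in CD206pos, against 50.9, 31.0 and 22.7 CPM in CD206neg. It fell by 3.54 on the log2 scale (SE 0.40, adjusted p = 0.0023), a call lost without litter 2 (adjusted p = 0.10). Ifitm6 averaged 1.22 ± 1.12 CPM in CD206pos and 4.83 ± 0.824 CPM in CD206neg (-1.98 ± 0.82, adjusted p = 0.25). Ifitm1 and Ifitm3 were thus lower in the libraries in which the progenitor and granulocyte markers given above were lower, and the part of those cells in the result was not tested. Of these 4 Ifitm genes, Ifitm1 was called, and Ifitm2 alone had a log2 fold change above 0.

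**Figure D3:**
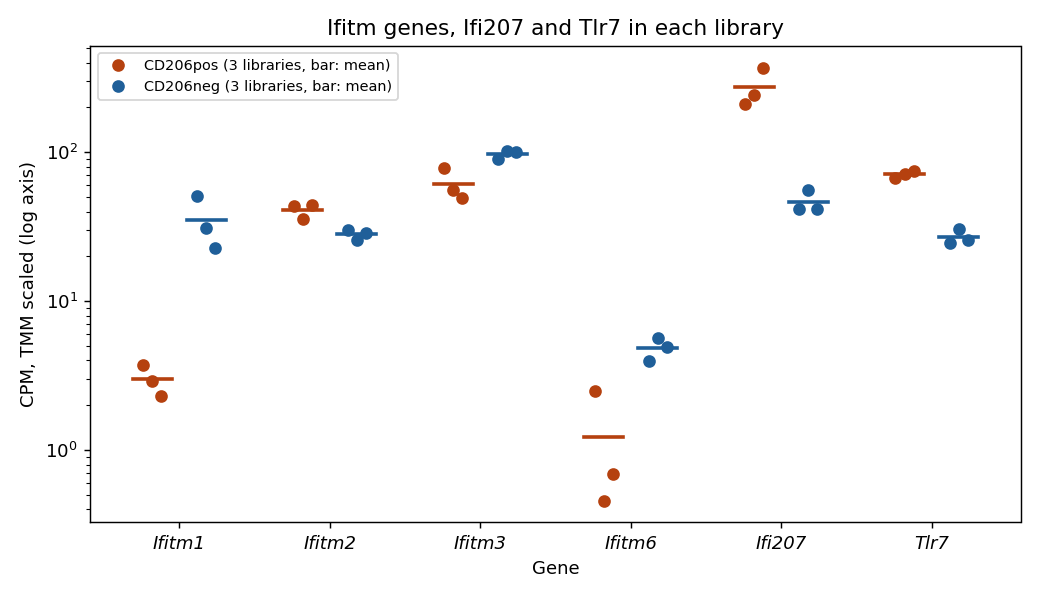
CPM of 4 Ifitm genes, Ifi207 and Tlr7 in each library, on a log axis, with CD206pos left of CD206neg and bars at the group means. Ifitm1, Ifitm3 and Ifitm6 lie lower in CD206pos and Ifitm2, Ifi207 and Tlr7 higher, with no overlap between groups in any of the 6 genes. Groups did not overlap for 24.6% of all genes tested. Ifitm1, Ifi207 and Tlr7 passed the test, and Ifi207 and Tlr7 are shown because they did.

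The Ifit proteins bind viral RNA. Their genes listed here all averaged under 10 CPM, and each had 0 reads in some library. Ifit1 had 31, 47 and 101 reads (1.90, 2.69 and 5.84 CPM) in CD206pos, against 0, 19 and 26 reads (0, 1.10 and 1.47 CPM) in CD206neg. The groups did not overlap (log2 fold change 2.02 ± 1.28, adjusted p = 0.50). Ifit2 averaged 4.94 ± 4.89 CPM in CD206pos and 3.81 ± 1.36 CPM in CD206neg. Ifit3 had 0, 0 and 53 reads in CD206pos and 30, 1 and 2 reads in CD206neg, and reads that it shares with its near-identical copy Ifit3b were not counted for either.

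The oligoadenylate synthetases make the messenger that activates RNase L. Oas1a averaged 6.97 ± 4.17 CPM in CD206pos and 6.09 ± 2.05 CPM in CD206neg, Oasl2 6.58 ± 5.13 CPM in CD206pos and 10.2 ± 7.38 CPM in CD206neg, and Oas2 4.82 ± 4.64 CPM in CD206pos and 0.677 ± 1.17 CPM in CD206neg, with Oas2 at 0 reads in 1 CD206pos library and 2 CD206neg libraries. None of the 3 passed (adjusted p between 0.56 and 0.93). The Mx genes encode dynamin-like GTPases that RefSeq lists as transcribed pseudogenes in the C57BL/6J reference. Mx1 averaged 4.87 ± 0.797 CPM in CD206pos and 6.745 ± 2.96 CPM in CD206neg, and Mx2 1.12 ± 1.52 CPM in CD206pos and 3.00 ± 1.02 CPM in CD206neg.

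Among the 3 members of Isg15 conjugation, Isg15 (2.21 RPKM) and Usp18 (2.12 RPKM) were low and Trim25 (11.9 RPKM) was higher. Isg15, a ubiquitin-like protein, averaged 1.83 ± 1.25 CPM in CD206pos and 1.51 ± 0.869 CPM in CD206neg. Usp18, the protease that removes Isg15 and restrains the receptor, averaged 4.01 ± 2.99 CPM in CD206pos and 7.845 ± 3.52 CPM in CD206neg. Trim25, a ubiquitin and Isg15 ligase that acts on RIG-I, averaged 72.4 ± 12.1 CPM in CD206pos and 64.8 ± 28.2 CPM in CD206neg. Their adjusted p values lay between 0.52 and 0.94.

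The ADP-ribosyltransferase genes Parp9 and Parp14 and the ubiquitin ligase gene Dtx3l, whose product is the partner of Parp9, all had log2 fold changes above 0, and none passed. Parp14 had 18.5, 27.15 and 53.9 CPM in CD206pos, against 16.3, 11.3 and 19.1 CPM in CD206neg. Its CD206pos libraries spread widely, and the lowest lay inside the CD206neg range (1.09 ± 0.41, unadjusted p = 0.028, adjusted p = 0.21). Parp9 averaged 54.0 ± 5.83 CPM in CD206pos and 35.45 ± 14.0 CPM in CD206neg (0.61 ± 0.28, adjusted p = 0.32) and Dtx3l 30.0 ± 9.21 CPM in CD206pos and 24.2 ± 6.58 CPM in CD206neg (adjusted p = 0.70). Parp9 and Dtx3l overlap each other over 458 bases of exon, where unstranded reads are assigned to neither.

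Of the effectors of nucleotide metabolism, Samhd1 and Rsad2 stood at opposite ends. Samhd1, which breaks down deoxynucleotides (ENSMUSG00000027639.16, GRCm38 chromosome 2, 157097533 to 157135265, minus strand), had 272, 275 and 294 CPM in CD206pos, against 233, 217 and 255 CPM in CD206neg. The groups did not overlap, and the difference was small (0.25 ± 0.13, adjusted p = 0.37). Rsad2, encoding viperin, which makes a chain-terminating nucleotide, had 0, 0 and 15 reads (0, 0 and 0.868 CPM) in CD206pos, against 54, 79 and 26 reads (2.94, 4.58 and 1.47 CPM) in CD206neg. The groups did not overlap (-3.34 ± 1.61, adjusted p = 0.34). This value rested on CD206pos replicate 3, without which CD206pos held no read: with libraries or litters left out it lay between -9.05 and -2.35, and edgeR's adjusted p between 0.0657 and 0.779. Cmpk2, a mitochondrial nucleotide kinase encoded next to Rsad2, averaged 4.10 ± 3.31 CPM in CD206pos and 7.61 ± 5.16 CPM in CD206neg.

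Of the other induced members, Ifi35 had 45.55, 42.2 and 45.8 CPM in CD206pos and 52.7, 43.6 and 49.3 CPM in CD206neg, with overlapping libraries (-0.13 ± 0.18, adjusted p = 0.82). Trim30a, a regulator of Toll-like receptor signalling, had 46.5, 77.3 and 64.2 CPM in CD206pos and 30.3, 48.4 and 62.6 CPM in CD206neg (0.41 ± 0.30, adjusted p = 0.57). Xaf1, a promoter of cell death, averaged 14.2 ± 4.68 CPM in CD206pos and 7.98 ± 2.58 CPM in CD206neg (adjusted p = 0.34), and Ifi27l2a, a small mitochondrial protein gene, 2.87 ± 1.22 CPM in CD206pos and 1.45 ± 0.806 CPM in CD206neg. Rtp4 averaged 9.89 ± 9.13 CPM in CD206pos and 2.28 ± 1.74 CPM in CD206neg (2.11 ± 1.15, adjusted p = 0.41).

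Within each population, the libraries differed from one another in a pattern that many members shared. CD206pos replicate 3 was the highest of its group for 23 of the 32 tested members with 3 distinct values (71.9%). The share over all genes tested was 33.1%. CD206pos replicate 1 was the lowest of its group for 16 of the 32, against 36.6% of all genes tested. Among the CD206neg libraries, replicate 1 was the lowest for 20 of the 32, against 35.4% of all genes tested, and replicate 3 the highest for 14 (43.8%). CD206neg replicate 3 was the highest of its group for 34.2% of all genes tested. Nearly as many members, 13 (40.6%), were highest in CD206neg replicate 2, against 29.4% of all genes tested. The summed level of the members was 1147, 1295 and 1455 CPM in CD206pos replicates 1, 2 and 3 and 998, 1203 and 1223 CPM in the same replicates of CD206neg. For the 15 tested members under 10 CPM it was 29.5, 62.4 and 108.5 CPM in CD206pos and 52.1, 65.3 and 81.1 CPM in CD206neg.

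Rtp4, Oas2 and Ifit2 illustrate this, and were chosen for it after their values were seen. Rtp4, a chaperone of G protein-coupled receptors, had 10, 178 and 326 reads in CD206pos replicates 1, 2 and 3 and 5, 58 and 57 reads in the CD206neg replicates, so that it was lowest in replicate 1 of both. Oas2 had 0, 91 and 160 reads in CD206pos and 0, 0 and 36 reads in CD206neg. Ifit2 had 0, 88 and 169 reads in CD206pos and 52, 56 and 95 reads in CD206neg. Of the members at 50 CPM or more, Ifnar1, Samhd1 and Trim25 also had their lowest level in replicate 1 and their highest in replicate 3 of CD206pos, while Ifitm3 and Bst2 were highest in replicate 1.

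**Figure D4:**
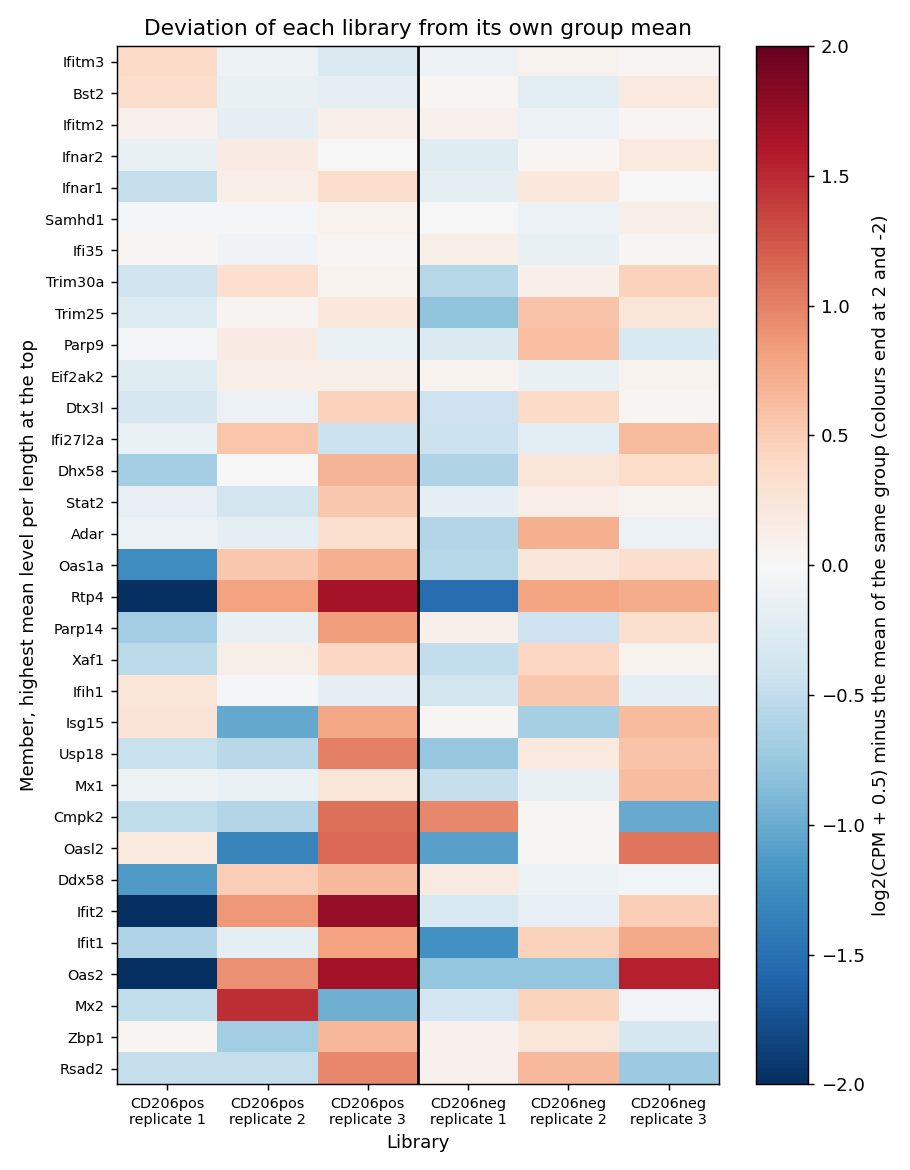
Deviation of each library from the mean of its own group, as log2(CPM + 0.5), for the 33 tested members, with the CD206pos libraries left of the CD206neg libraries and members ordered by level per length. CD206pos replicate 3 is above its group mean for most members below the top rows and CD206neg replicate 1 below it for many, while the 7 members in the top rows show pale colours.

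Of 62 further interferon-induced genes listed, 51 were tested. Of these, Ifi207 rose and Ifitm1 fell. Over all pathway genes outside the members, 3 of 84 tested were called, 2 higher and 1 lower, beside 4.87% of all genes. With the litter as a block 5 of the 84 were called, the additional ones being Ifi204 and Ifi30 (5.55% of all genes). The gene that rose, Ifi207, belongs to the cluster of interferon-inducible PYHIN proteins on chromosome 1, some of which bind DNA. It had 211, 243 and 370 CPM in CD206pos, against 41.8, 55.4 and 41.4 CPM in CD206neg, a 5.95-fold difference with groups far apart (2.57 ± 0.25, adjusted p = 0.0014). The Ifi207 call was lost without litter 2 (adjusted p = 0.0753), where 3 genes in all were called. Ifi207 and Tlr7 were higher in the libraries with the higher summed level of macrophage markers. That sum includes Mrc1, on whose product the cells were sorted. The part of the difference in macrophage markers in either result was not tested. Ifi204 averaged 72.9 ± 23.85 CPM in CD206pos and 40.0 ± 12.8 CPM in CD206neg (0.87 ± 0.32, adjusted p = 0.20), and Ifi211, of the same family, 1.59 ± 1.53 CPM in CD206pos and 10.9 ± 2.48 CPM in CD206neg (-2.77 ± 0.95, adjusted p = 0.17). These genes resemble each other in sequence, and reads that map to several of them were not counted.

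The other pathway genes at an unadjusted p under 0.05 did not pass in edgeR, whose adjusted p values are given here. DESeq2 called Pml, Ifi30, Tmem140, Sp100 and Ifi211 among them (9.56% of all genes were called), and limma-voom called Ifi30, Tmem140 and Gbp7 (6.43%). Ifi30 also passed in edgeR with the stricter filter on low counts. On the higher side in CD206pos were Pml, the scaffold of nuclear bodies (51.6 ± 12.8 CPM in CD206pos, 26.7 ± 6.18 CPM in CD206neg, adjusted p = 0.10), and Ifi30, a lysosomal thiol reductase (199.5 ± 14.4 CPM in CD206pos and 119.9 ± 26.3 CPM in CD206neg, adjusted p = 0.067). Tmem140 (adjusted p = 0.079), Ifi27, Slfn9, Ddx60, the chemokine gene Cxcl10 and the guanylate-binding protein gene Gbp7 were also on that side (adjusted p between 0.13 and 0.27 for these last 5). On the lower side was Sp100, another nuclear body gene, at 6.18 ± 1.399 CPM in CD206pos and 18.45 ± 10.7 CPM in CD206neg (adjusted p = 0.11). Nampt, an enzyme of NAD synthesis, was at 70.65 ± 1.199 CPM in CD206pos and 99.6 ± 15.4 CPM in CD206neg (adjusted p = 0.17).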

How the data were processed

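RNA-seq libraries of 3 CD206pos and 3 CD206neg sorts were analysed. Cells were released with collagenase (45 minutes, 37 degrees Celsius) and sorted on GFP and CD206-APC, per the labels' protocols. The deposited values are whole read counts per gene, which the authors made with featureCounts 1.5.2 over exons of the GENCODE vM14 annotation, with no strand, pair or multi-mapping option, per the file headers. The submitters' processing notes name FastQC, STAR 2.3, Subread, mm10 and GRCm38.p5. The authors' files also give the exonic length of each gene, used for RPKM; it includes all annotated exons and can exceed the expressed transcript. Symbols matched 51633 of 51912 identifiers.

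For the tests, edgeR 4.0.16 (R 4.3.3) was run on the counts (filterByExpr, TMM, robust quasi-likelihood F test, Benjamini-Hochberg over all genes tested), after checks on simulated data. Standard errors are the log2 fold change divided by the square root of F. Alternatives were the litter block, other scalings and filters, DESeq2 1.42.0, limma-voom 3.58.1, no robust estimation, and fits without each library or each litter in turn. The AGM number of the titles, with the 3 litters of the series design, pairs the libraries. Over all genes tested, deviations from group means correlated at 0.09, 0.04 and 0.18 in same-numbered pairs and at -0.15 to 0.06 in other pairs. Over the tested members they correlated at 0.39, -0.07 and 0.35 in same-numbered pairs and at -0.49 to 0.30 in other pairs. Replicates of a group differed by 36.9 to 90.4 in chi-square per degree of freedom, so none was a copy. Reads carry no molecular identifiers, and floors on counts cover counting error only. The intervals of the log2 fold changes come from edgeR's standard errors, which also include variation between replicates.

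The members and gene lists were chosen with earlier results of these data known. Library values are given for members called, at an unadjusted p under 0.05, with groups apart, among the 8 highest per length, or Ifnar1, Ifnar2 and Stat2. Of the pathway lists, Ifnb1, Jak1, Tyk2, Irf9, Irf7 and genes at an unadjusted p under 0.05 are named; 1 further gene of the rule is not reported here. The symbols Mb21d1 and Parp13 of the lists matched no row.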

Additional observations from a re-analysis of the deposited data

How the results depend on the processing

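All 68 mean levels (each of 34 detected members in each population) stayed within 1 SD between replicates under the 3 other scalings, and so did the summed levels. The count of all genes called was 617, 1210 with DESeq2, and 3 (without litter 2) to 561 (without CD206pos replicate 1) when libraries or litters were left out. Members called higher stayed at 0 throughout. Members called lower numbered 1 with DESeq2 and 1 with limma-voom, and 0 to 1 with libraries left out, each time Ifitm3. Pathway genes called numbered 5 with the replicate block, 8 with DESeq2, 6 with limma-voom, and 0 (without litter 2) to 3 with libraries left out. The member median was 0.0963 with the replicate block, 0.104 with library totals, and 0.0053 to 0.373 with libraries left out. The litter block changed no other call among the genes named. The cause of these changes was not tested. The fits that leave some libraries out also hold a smaller number of libraries.

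Signs turned only for differences that no fit called. With the replicate block Ddx58 was at -0.0654 and Ifit2 at -0.616. With library totals Ifih1 was at -0.0386 and Bst2 at -0.0559. With limma-voom Ifnar2 was at 0.00201, Ifih1 at -0.0668, Ifit2 at -0.493 and Bst2 at -0.0244. With libraries left out, log2 fold changes spanned -0.123 to 0.0879 for Ifnar2, -0.26 to 0.387 for Ifih1, -0.257 to 0.607 for Ddx58, -0.258 to 0.0623 for Eif2ak2 and -0.56 to 0.271 for Adar. They spanned -0.602 to 0.957 for Ifit2, -0.169 to 0.616 for Oas1a, -1.43 to 0.0944 for Oasl2, -0.167 to 0.20 for Bst2, -0.333 to 0.787 for Isg15, -0.149 to 0.463 for Trim25 and -2.21 to 0.0584 for Cmpk2. Outside the members they spanned -0.534 to 0.134 for Tyk2, -0.0169 to 0.512 for Irf9 and -0.173 to 0.714 for Irf7. With 3 libraries a group, precision was lowest for the 15 tested members under 10 CPM, whose standard errors reached 2.02.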

Other observations

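Guanylate-binding proteins and immunity-related GTPases are induced chiefly by interferon gamma and attack vacuoles that hold microbes. Of 13 genes listed from these families with Ciita, the activator of MHC class II genes, 10 were tested and 0 were called in edgeR, beside 4.87% of all genes, with 1, Gbp7, at an unadjusted p under 0.05, beside 17.6% of all genes. All 10 log2 fold changes lay above 0, between 0.11 and 1.32, with a median of 0.55, where 49.6% of all genes tested lay above 0. Gbp7 had 129.5, 160.1 and 189.2 CPM in the CD206pos libraries, against 117.4, 105.5 and 104 CPM in the CD206neg libraries, with no overlap (log2 fold change 0.55 ± 0.17, SE, adjusted p = 0.13 in edgeR). Limma-voom called Gbp7 and edgeR with the litter block did not. Many of the 10 tested genes, though not all, were highest in CD206pos replicate 3, as were many members. Ciita and Gbp6 had no read in any library. Iigp1, under the filter, lay the other way, with 0, 0 and 2 reads in CD206pos and 0, 0 and 52 reads in CD206neg (named after its value was seen).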
